A study of Mus musculus with 3 samples.

Results

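Messenger RNAs of 8 genes known from the outer layers of the epidermis were followed in the epithelial cells of mouse thymus cultures. The genes were Sprr1a, Sprr2a3, Ivl, Spink5, Krtdap, Dmkn, Sbsn and Lypd3, chosen by name out of 32285 genes in the count table. All 8 were detected in both culture systems. The libraries came from 1 droplet-based 5′ single-cell lane of C57BL/6J wild-type cells after 13 days of culture. FTOC, fetal thymic organ culture, was made of intact E13.5 thymic lobes held on a filter. ORFTOC was a reaggregate on a filter, in which E16.5 thymic epithelial cells (TECs) that had first been grown as organoids in Matrigel with FGF7 were combined with E13.5 thymus cells depleted of EpCAM-positive cells and with mouse embryonic fibroblasts. Both systems were held in the same medium with FGF7, to which the ROCK inhibitor thiazovivin was added at the start, as it was to the organoid medium. In each system 2 cultures were mixed before hashtag labelling, so each pool is 1 sample, no replicate error can be given and no test was made. All intervals below are 95% intervals that cover counting error only, exact Poisson for levels, conditional binomial for ratios and Clopper-Pearson for shares.

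When keratinocytes leave the basal layer, they switch keratins and assemble a cornified envelope, a sheet of proteins cross-linked beneath the plasma membrane by transglutaminases. Involucrin (Ivl) is an early scaffold of that sheet, and the small proline-rich proteins Sprr1a and Sprr2a3 form bridges within it. Spink5 encodes LEKTI, an inhibitor of the kallikrein proteases that loosen dead corneocytes. Krtdap, dermokine (Dmkn) and suprabasin (Sbsn) are secreted by differentiating keratinocytes and lie next to each other in the genome, and Lypd3 (C4.4A) is a membrane-anchored protein of suprabasal cells. In the thymus, medullary TECs (mTECs) are known to transcribe genes of many peripheral tissues, those of the skin among them, while cortical TECs (cTECs) support early thymocytes.

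On the mm10 build (GRCm38.p6), which is the build of the count table, Sprr2a3 lies at chr3:92285304-92289264, Sprr1a at chr3:92483954-92485881 and Ivl at chr3:92570899-92573790. Sbsn (chr7:30732674-30756134), Dmkn (chr7:30763756-30781066) and Krtdap (chr7:30787905-30791089) stand in that order on chromosome 7. The gap between Sbsn and Dmkn is 7622 bases and that between Dmkn and Krtdap 6839 bases. Lypd3 lies at chr7:24636570-24641118. Upstream sequence is shown for 5 of the genes because they share a motif. Each line gives, 5′ to 3′, the 170 bases before a RefSeq start site and the start base. The Sbsn window belongs to a start inside the gene span given above, and its motif runs onto the start base. Dmkn has several RefSeq starts, and the window of 1 is shown. The windows are chr3:92485881-92486051 (minus strand), chr3:92573735-92573905 (minus), chr7:30787735-30787905 (plus), chr7:30763586-30763756 (plus) and chr7:30751301-30751471 (plus). Capitals mark TGAGTCA or its complement TGACTCA, the consensus site of AP-1 (Fos and Jun dimers), and TATAAA.
Sprr1a: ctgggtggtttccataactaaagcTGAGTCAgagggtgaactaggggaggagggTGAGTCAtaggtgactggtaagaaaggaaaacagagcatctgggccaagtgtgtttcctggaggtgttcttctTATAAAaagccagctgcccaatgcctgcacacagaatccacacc
Ivl: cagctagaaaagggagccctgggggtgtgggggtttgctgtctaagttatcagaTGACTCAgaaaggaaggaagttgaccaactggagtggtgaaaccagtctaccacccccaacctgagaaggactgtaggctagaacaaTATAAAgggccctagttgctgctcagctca
Krtdap: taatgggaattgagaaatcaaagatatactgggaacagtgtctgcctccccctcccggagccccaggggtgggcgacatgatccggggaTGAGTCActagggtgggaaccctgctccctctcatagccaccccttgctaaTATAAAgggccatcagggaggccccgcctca
Dmkn: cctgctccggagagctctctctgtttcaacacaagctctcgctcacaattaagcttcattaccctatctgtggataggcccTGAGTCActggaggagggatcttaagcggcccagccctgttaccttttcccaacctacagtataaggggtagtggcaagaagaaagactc
Sbsn: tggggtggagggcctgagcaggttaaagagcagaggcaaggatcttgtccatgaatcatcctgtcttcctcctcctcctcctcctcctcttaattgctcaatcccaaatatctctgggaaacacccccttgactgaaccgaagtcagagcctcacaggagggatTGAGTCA
The search covered windows of 300 bases, 250 before and 50 after each RefSeq start. TGAGTCA on either strand was present in 5 of the 7 genes with a window that was searched, and in neither Sprr2a3 nor Lypd3. Its positions from the start were -146 and -116 in Sprr1a, -116 in Ivl, -81 in Krtdap and -6 in Sbsn. In Dmkn it was at -89 in the window shown, and at -91 and -82 in windows of other starts. Among all 32851 windows searched, 5.20% held it, and 5.95% of 27025 genes had at least 1 such window. TATAAA on the printed strand, held by 8.32% of all windows, was present in Sprr1a, Ivl and Krtdap. Of 4 further motifs searched on both strands, CCACACCC (3.56% of all windows) matched Ivl, whereas CACGTG (7.15%), ACCGGAAGT (1.10%) and AACCGGTT (0.146%) matched none. These matches describe sequence only, since binding was not measured.

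After removal of low-quality barcodes and doublets, 8392 cells were assigned to a pool, 4041 to FTOC and 4351 to ORFTOC. Cells with at least 1 Epcam UMI (a molecule counted by its unique identifier) were taken as epithelial. They numbered 1139 in FTOC (28.2% of the pool; 14172571 UMIs, median 11668 per cell) and 1450 in ORFTOC (33.3%; 19891793 UMIs, median 12971.5). The gate was not pure. Ptprc, the leukocyte gene encoding CD45, was detected in 13.6% of the FTOC and 15.6% of the ORFTOC epithelial cells, and 321 of the 2589 cells fell into 5 clusters led by genes of other cell types. Those clusters held 1 of the 194 cells with UMIs of at least 3 of the 8 genes. A further cluster of 63 cells, led by the collagen genes Col1a1, Col1a2 and Col3a1 and also by Foxi1 and Ascl3, was not counted among the 5 and held 3. Y-linked transcripts gave 6 UMIs in the FTOC and 1668 UMIs in the ORFTOC epithelial cells, so the culture system and the sex of the embryos cannot be told apart.

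Most of the 8 genes were at similar levels in FTOC and ORFTOC epithelium. Krtdap was higher in ORFTOC, and Ivl and Lypd3 were higher in FTOC. Levels are given in CPM, UMIs of a gene per 1000000 UMIs of the epithelial cells of that pool, a scale on which values are compared between pools and not between genes. The plot of levels and shares by pool gives all 8 genes. Of the 15443 genes with at least 20 UMIs, 5.87% were at least 2-fold higher in ORFTOC and 6.33% at least 2-fold higher in FTOC. Among the 8 genes, 1 and 2 were.

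**Figure D1:**
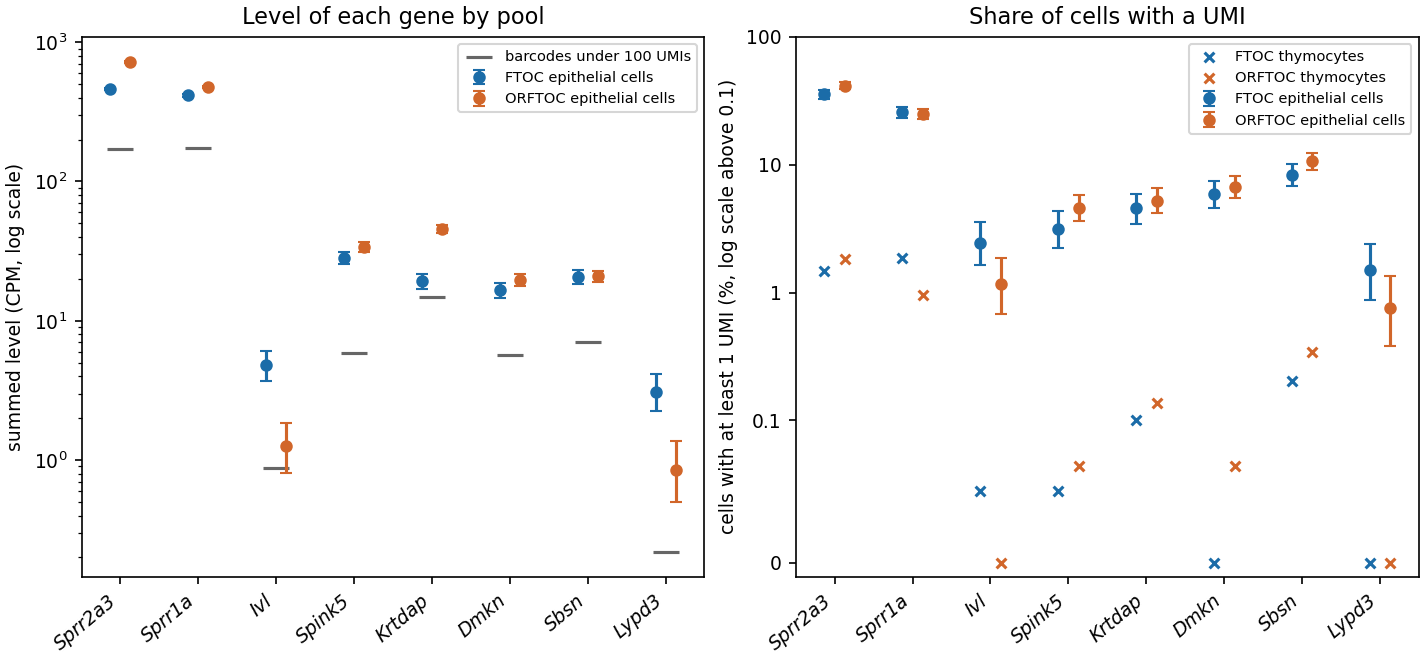
Left, level of each gene in CPM (log scale) over the epithelial cells of FTOC and ORFTOC with exact Poisson intervals, beside its level in barcodes with under 100 UMIs (grey dashes). Right, percent of epithelial cells with at least 1 UMI with Clopper-Pearson intervals (dots) and percent of thymocytes with a UMI (crosses). Ivl and Lypd3 sit higher in FTOC and Krtdap higher in ORFTOC, and every epithelial share lies above the thymocyte share of the same gene.

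The small proline-rich genes were the most widely detected. Sprr1a stood at 415 CPM in FTOC (404 to 425) and 477 CPM in ORFTOC (468 to 487), a ratio of 1.15. It was detected in 25.6% of FTOC and 24.8% of ORFTOC epithelial cells, and these intervals overlap (23.1 to 28.3% and 22.6 to 27.1%). Thus its level was a little higher in ORFTOC while the share of cells was not. When each cell was given equal weight, the log2 ratio was -0.01. Sprr2a3 stood at 461 CPM in FTOC (450 to 472) and 717 CPM in ORFTOC (705 to 729), 1.55-fold higher in ORFTOC (1.51 to 1.60). The share of cells with a Sprr2a3 UMI was 35.4% (32.6 to 38.2%) and 41.3% (38.8 to 43.9%), without overlap of the intervals. Positive cells held a median of 5 Sprr2a3 UMIs in FTOC and 10 in ORFTOC.

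Sprr2a3 has near-identical copies. Its annotated transcripts aligned to those of Sprr2a1 and Sprr2a2 with 98.1 to 98.9% identical bases, so reads may be split among the 3 genes and the value of each is uncertain. Sprr2a1 stood at 137 CPM in FTOC and 140 CPM in ORFTOC, and Sprr2a2 at 2.61 and 3.67 CPM. With the 3 genes summed, a choice made after the values were seen, the log2 ratio of ORFTOC over FTOC was 0.52 in place of 0.64.

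Ivl, the scaffold protein of the envelope, was the scarcest of the structural members and was 3.82-fold higher in FTOC (2.38 to 6.30). It had 68 UMIs in 28 FTOC cells (4.80 CPM, 3.73 to 6.08) and 25 UMIs in 17 ORFTOC cells (1.26 CPM, 0.813 to 1.86). These UMIs came from few cells, as 4 cells in FTOC and 6 in ORFTOC held 50% of them, and 1 FTOC cell held 18. With the leading cell of each pool left out, the log2 ratio went from -1.93 to -1.67. Lypd3 behaved in the same direction, with 44 UMIs in 17 FTOC cells (3.10 CPM, 2.26 to 4.17) and 17 UMIs in 11 ORFTOC cells (0.855 CPM, 0.498 to 1.37), 3.63-fold higher in FTOC (2.03 to 6.78). In FTOC, 2 cells held 50% of the Lypd3 UMIs. The shares of cells with a UMI had overlapping intervals for Ivl (1.64 to 3.53% in FTOC and 0.684 to 1.87% in ORFTOC) and for Lypd3 (0.872 to 2.38% and 0.379 to 1.35%).

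Krtdap was 2.38-fold higher in ORFTOC (2.08 to 2.73), with 273 UMIs in FTOC (19.3 CPM, 17.0 to 21.7) and 912 UMIs in ORFTOC (45.8 CPM, 42.9 to 48.9). The share of cells with a Krtdap UMI was 4.57% (3.43 to 5.94%) in FTOC and 5.24% (4.15 to 6.52%) in ORFTOC. The pools therefore differed in the UMIs per positive cell, a mean of 5.25 in FTOC and 12 in ORFTOC, and not detectably in the number of positive cells. The medians were lower, 2 in FTOC and 4 in ORFTOC. Few cells carried these means, as 5 cells in FTOC and 9 in ORFTOC held 50% of the Krtdap UMIs. The difference fell under 2-fold when within-pool doublets were kept (log2 ratio 0.95) and when each cell had equal weight (0.62).

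Its chromosomal neighbours were under 2-fold apart. Dmkn stood at 16.5 CPM (14.5 to 18.8) in FTOC and 19.6 CPM (17.7 to 21.6) in ORFTOC, a ratio of 1.18 (1.00 to 1.40). Sbsn was at 20.5 CPM (18.2 to 23.0) and 20.8 CPM (18.9 to 22.9), a ratio of 1.01 (0.870 to 1.18). A single FTOC cell held 97 of the 291 Sbsn UMIs of that pool, and with the leading cell of each pool left out the Sbsn log2 ratio was 0.52 instead of 0.02. Spink5 lies at chr18:43959545-44022487. It stood at 28.2 CPM (25.5 to 31.1) and 33.9 CPM (31.4 to 36.6), 1.2-fold higher in ORFTOC (1.06 to 1.36). Its UMIs were also concentrated, with 87 of 400 in 1 FTOC cell.

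Free RNA was present in the lane. In barcodes with under 100 UMIs Sprr1a stood at 174 CPM and Sprr2a3 at 172 CPM, Krtdap at 14.8 CPM, Sbsn at 6.99 CPM, Spink5 at 5.89 CPM, Dmkn at 5.68 CPM, Ivl at 0.873 CPM and Lypd3 at 0.218 CPM. Thymocytes (Ptprc and Cd3e detected, Epcam not) served as cells that should lack these transcripts. Sprr1a was detected in 1.87% of the 1982 FTOC and 0.954% of the 1467 ORFTOC thymocytes, and Sprr2a3 in 1.46 and 1.84%. No other gene of the 8 exceeded 0.341% of thymocytes in either pool. Thymocytes were shallower, with median depths of 3446.5 and 7094 UMIs per cell. With every cell thinned to 5000 UMIs, which left out 135 FTOC and 118 ORFTOC epithelial cells, the expected share with Sprr1a was 20.7 and 21.1% in epithelial cells against 1.17 and 0.438% in thymocytes. For Krtdap the thinned shares were 3.43 and 4.14% against 0.0306 and 0.0657%. Lypd3, the rarest, kept 0.761 and 0.304% of epithelial cells and had no UMI in any thymocyte. At the same depth the thymocytes allow shares of up to 0.439% in FTOC and 0.395% in ORFTOC, so in ORFTOC the Lypd3 share was not above the background that could be detected. Sbsn was not limited to Epcam-positive cells. Among cells with Pdgfra and without Epcam or Ptprc, it was detected in 5 of 54 in FTOC and 27 of 209 in ORFTOC.

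Most epithelial cells that carried one of these transcripts carried few of the others. Of the 2589 epithelial cells, 1127 had none of the 8 genes, and 408 had 2, of which 254 had the Sprr1a and Sprr2a3 pair. At least 3 genes were detected in 78 FTOC cells (6.85%, 5.45 to 8.47%) and 116 ORFTOC cells (8.0%, 6.66 to 9.52%). Thinned to 5000 UMIs, the expected shares were 3.48% (2.44 to 4.81%) and 4.80% (3.71 to 6.09%), so a difference between the pools was not detectable at this depth. Detection of several genes went with depth. In FTOC the share with at least 3 genes went from 4.14% in the lowest of 4 depth classes (cut at the quartiles of both pools together) to 10.7% in the highest, and in ORFTOC from 3.29 to 13.3%.

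The genes differed in how far they kept company. Sprr2a3 was the only one of the 8 genes in 53.1% of its FTOC and 53.6% of its ORFTOC cells. In contrast, Krtdap stood alone in 13.5 and 7.89% of its cells, and 65.4 and 72.4% of Krtdap cells had at least 3 of the genes. Of all Krtdap UMIs, 85.7% in FTOC and 94.2% in ORFTOC lay in cells with at least 3 genes. For Sprr2a3 these values were 17.4 and 18.9%. Such shares depend on how widely a gene was detected. Krtdap was found in 4.57% of FTOC and 5.24% of ORFTOC epithelial cells, and Sprr2a3 in 35.4 and 41.3%. A rare gene meets common ones more often than the reverse, and no expectation from detection rates was computed.

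**Figure D2:**
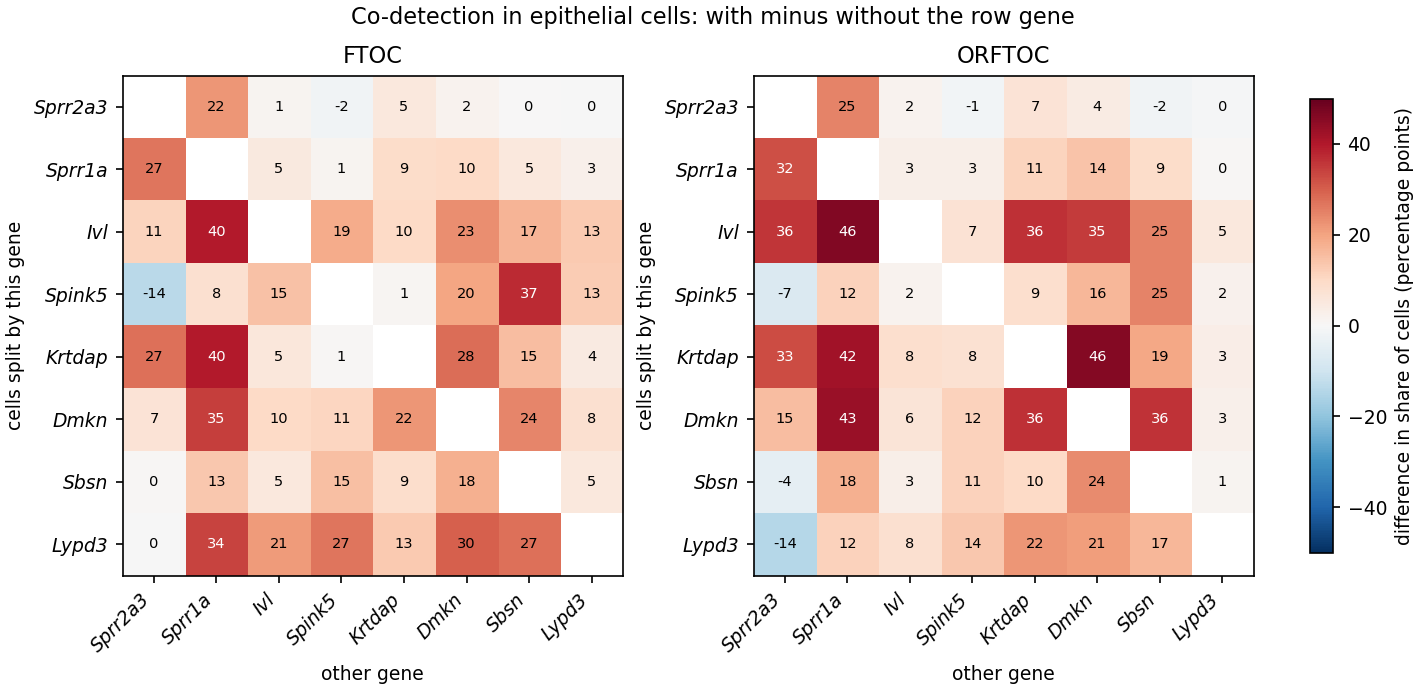
For each pair, the percent of epithelial cells with the column gene among cells with the row gene minus that among cells without it, in percentage points, for FTOC (left) and ORFTOC (right). High positive values stand in the Sprr1a column for Ivl, Krtdap and Dmkn, in the Dmkn column for Krtdap and in the Sbsn column for Spink5, and the Sprr2a3 value is negative for Spink5 in both pools.

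Pairs of genes were compared by the share of cells with one gene among cells with and without the other. Dmkn was detected in 38 of the 76 ORFTOC cells with Krtdap (38.3 to 61.7%) and in 4.29% of those without it. In FTOC these values were 32.7% (20.3 to 47.1%, 52 cells) and 4.6%. Spink5 went with Sbsn, which was found in 44.4% of FTOC cells with Spink5 and 7.16% of those without, and in 34.3 and 9.54% in ORFTOC. Sprr2a3 was found in 55.1% of FTOC cells with Sprr1a against 28.6% without, and in 65.5 against 33.4% in ORFTOC. Spink5 and Sprr2a3 went the other way in both pools. Sprr2a3 was present in 22.2% of FTOC cells with Spink5 (10.1 to 39.2%) and in 35.8% of those without. In ORFTOC it was present in 34.3% (23.2 to 46.9%) and 41.6%. In both pools the interval holds the value of the cells without Spink5, so this difference was not resolved in either.

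Depth alone can make detected genes coincide, so the pairs were also given below and above the median of total UMIs. Over both pools, Dmkn was found in 27.5% of the Krtdap cells below the median depth, against 3.30% of the cells without Krtdap, and in 53.2 against 5.58% of the deeper cells. Sbsn was found in 27.3 against 6.34% (with and without Spink5) of the shallower cells and in 42.9 against 10.7% of the deeper ones. For Sprr2a3 with and without Spink5, the values were 21.2 against 31.6% and 34.3 against 46.7%. The direction was the same below and above the median for these pairs.

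UMIs of at least 5 of the genes were found in 25 cells, 8 of FTOC and 17 of ORFTOC, and the heat map of these cells shows them one by one. All 25 had Sprr1a, 24 had Dmkn and 13 had Spink5. Basal keratin Krt5 was detected in 23 of them, with at least 10 UMIs in 22, and Krt14 in 18. Krt10, a keratin of suprabasal keratinocytes, reached 5 UMIs in 2 and was detected at 1 or 2 UMIs in others. The minimum of 5 UMIs was not applied to Krt5 or Krt14, so these counts do not rank the keratins. They were also not set against the shares of all epithelial cells with each keratin. An FTOC cell with 7 of the genes stood apart, with 50 Krt10, 315 Krt13, 84 Calm4 and 440 Krt5 UMIs out of 26203. Another FTOC cell with 7 of the genes had 53 Calm4 and 9 Ivl UMIs. The airway secretory transcript Bpifa1 ran from 0 to 3316 UMIs among the 25 cells. Ptprc was detected in 4 of them, 2 UMIs being found in the single cell with all 8 genes. That cell had 60616 UMIs and fell into the cluster led by C1qb, C1qa and C1qc, genes of macrophages, so more than 1 cell in its droplet was possible and was not tested.

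**Figure D3:**
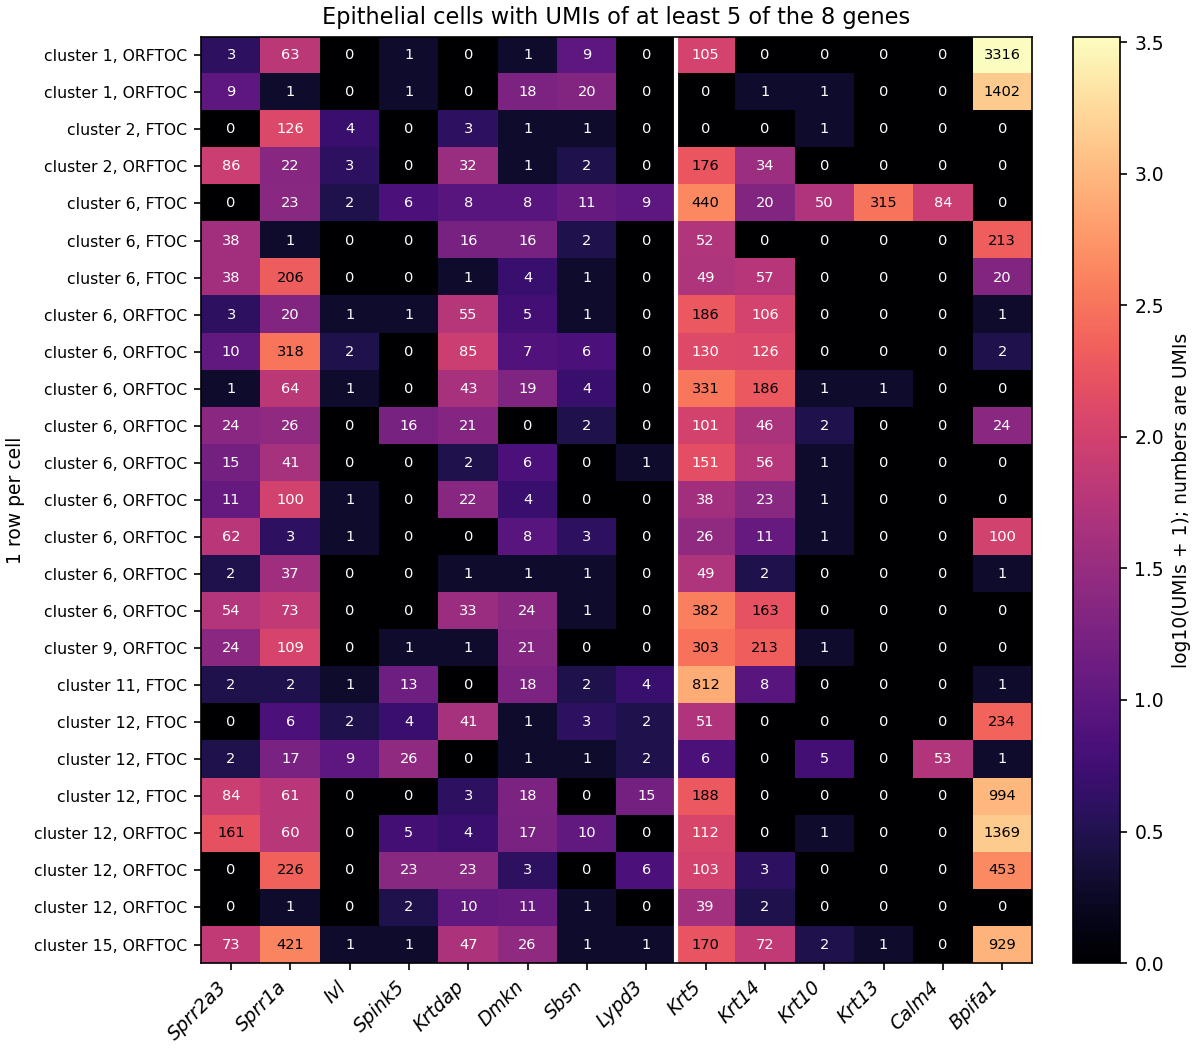
UMIs of the 8 genes (left of the white line) and of Krt5, Krt14, Krt10, Krt13, Calm4 and Bpifa1 (right) in the 25 epithelial cells with at least 5 of the 8 genes, 1 row per cell, coloured by log10(UMIs + 1). Krt5 fills nearly every row, while Krt13 and Calm4 are high in 1 and 2 FTOC cells.

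The epithelial cells were grouped into 16 clusters without the 8 genes, Xist and Y-linked genes, and the genes fell into different clusters. The heat map by cluster gives all levels. Krtdap was centred on cluster 6 (229 cells, mTEC-like, led by Ccl11, Krt15 and Vsnl1), which held 64.3% of its UMIs at 269 CPM. Krtdap was detected in 22.3% of the cells of that cluster. Sprr1a stood at 1539 CPM there, in 52.0% of cells, followed at this resolution by cluster 2 (Igfbp2, Ndufa4l2 and Aqp3; 948 CPM) and cluster 4 (Lypd1, Ms4a10 and Prss23; 786 CPM). Cluster 6 held 33.0% of all cells with at least 3 genes, which made up 27.9% of its cells.

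Sprr2a3 had the broadest range. It was highest in cluster 4 (1475 CPM, 73.1% of cells), and in the cTEC-like cluster 3 (Tbata, Psmb11 and Prss16) it reached 1037 CPM and 57.8% of cells. In that same cTEC-like cluster Sprr1a stood at 38.5 CPM, Krtdap at 1.34 CPM, Dmkn at 0.224 CPM and Ivl had no UMI. Sbsn, at 2.91 CPM, was detected in 3.64% of the cells. Of the 275 cTEC-like cells, 1 had at least 3 genes.

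Spink5 and Sbsn lay in the airway-like cluster 1 (444 cells, led by Bpifa1, Hp and Muc5b), which held 71.8% of Spink5 UMIs and 50.4% of Sbsn UMIs. The levels there were 147 CPM for Spink5 and 67.6 CPM for Sbsn, and Sbsn was detected in 26.8% of the cells. Ivl, by contrast, had no UMI in these 444 cells, and Krtdap stood at 2.29 CPM. Sbsn stood at 68.1 CPM in cluster 11 (Calcb, Psors1c2 and Wfdc21), but 1 cell held 97 of its 113 UMIs there, and without that cell the level was 9.80 CPM.

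Cluster 12 (65 cells, tuft-like, led by Gnat3, Gng13 and Gnb3) had the highest levels of Ivl (31.7 CPM), Lypd3 (30.7 CPM), Dmkn (104 CPM) and, at this resolution, Spink5 (198 CPM). It held 31.2% of Ivl UMIs and 45.9% of Lypd3 UMIs, and these were found in 4.62 and 9.23% of its cells. Without the leading cell of each gene the levels were 12.1 CPM for Ivl and 14.7 CPM for Lypd3. For Ivl, 2 cells held 27 of the 29 UMIs of the cluster, and for Lypd3, 2 cells held 21 of 28. The high Ivl level of this cluster is therefore a result of 2 cells. The tuft markers and the cornification genes were, however, mostly in different cells of that cluster. Of its 26 cells with more than 10 UMIs of the 6 tuft markers, 1 had at least 3 of the genes and none had 4. Of the 24 cells without a tuft marker UMI, 9 had at least 3 and 7 had at least 4. Hence the levels of cluster 12 are not levels of tuft-like cells alone.

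**Figure D4:**
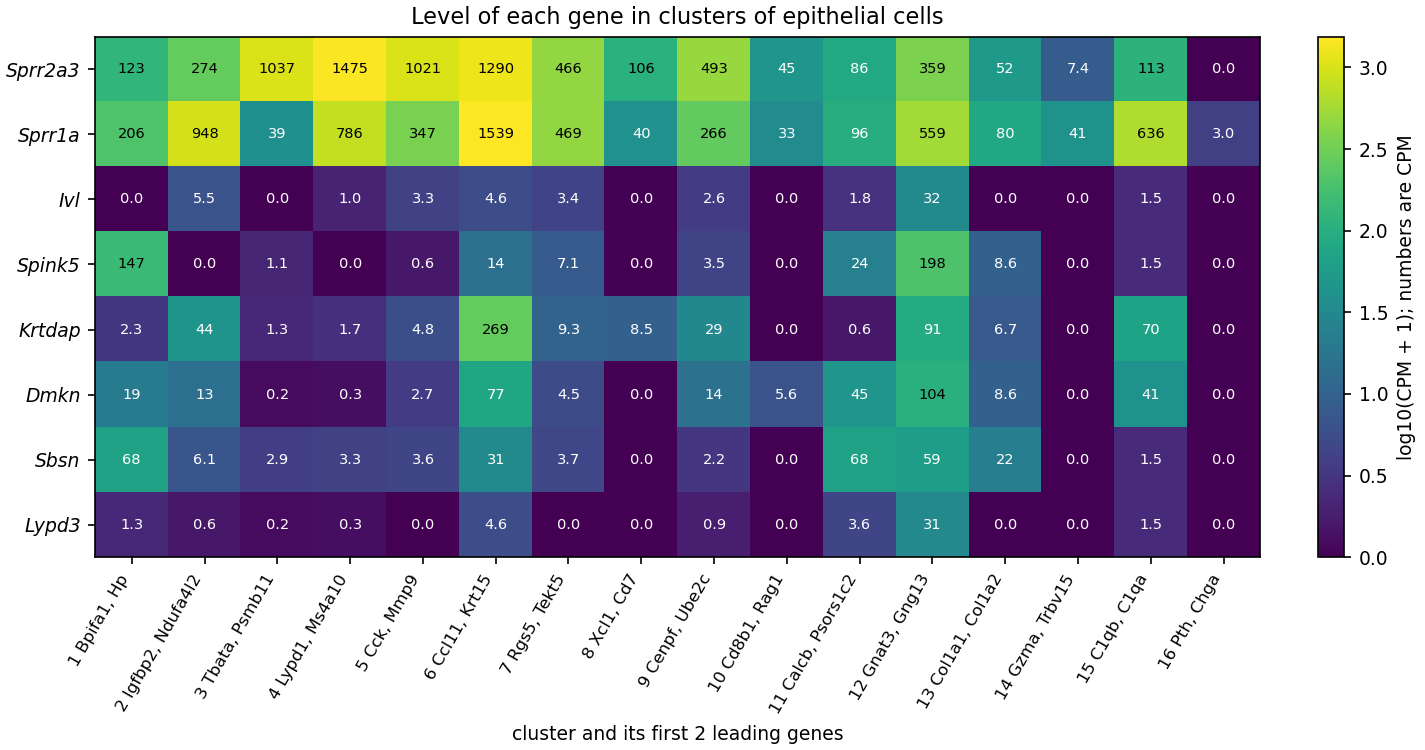
Level of each gene (rows) in the 16 clusters of epithelial cells (columns, each with 2 leading genes), both pools together. Colour is log10(CPM + 1) and the printed numbers are CPM. Krtdap peaks in cluster 6, Spink5 in clusters 12 and 1, Sprr2a3 in clusters 4, 6, 3 and 5, and Ivl and Lypd3 in cluster 12. In cluster 12, 2 cells held 27 of the 29 Ivl UMIs and 2 cells held 21 of the 28 Lypd3 UMIs.

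Within clusters the pools could be set side by side. In cluster 6, Krtdap stood at 93.7 CPM in FTOC (73.1 to 118) and 332 CPM in ORFTOC (308 to 358), with 12.1 and 26.4% of cells positive. Sprr1a in the same cluster stood at 818 and 1797 CPM, and Sprr2a3 at 773 and 1476 CPM. Sbsn there went the other way, with 52.2 CPM in FTOC (37.1 to 71.4) and 24.0 CPM in ORFTOC (17.8 to 31.7). Without the leading cell of each pool the Sbsn levels were 38.9 and 21.3 CPM. The shares of cells with Sbsn had overlapping intervals (12.1 to 33.0% in FTOC and 10.2 to 21.8% in ORFTOC). In the airway-like cluster 1, Spink5 was at 190 CPM in FTOC (166 to 217) and 135 CPM in ORFTOC (124 to 147), but with the leading cell of each pool left out the levels were 116 and 120 CPM. Of the 444 airway-like cells 339 were from ORFTOC. In cluster 12, Ivl had 29 UMIs in 3 of the 28 FTOC cells, 18 of them in 1 cell (76.3 CPM, or 29.5 CPM without that cell), and none in the 37 ORFTOC cells, which allows up to 6.91 CPM. Cluster boundaries moved with resolution. At resolutions of 0.4 and 1.2 the highest Krtdap level was in a cluster led by Ndufa4l2 that held 49.7 and 49.4% of its UMIs. The highest Sprr1a level was in the same cluster (1266 and 1895 CPM), and that of Spink5 was in clusters led by Bpifa1 (143 CPM) and Muc5b (302 CPM).

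Other genes of epidermal differentiation were examined in 8 lists of 141 genes in the table, the 8 genes themselves left out. Cells with at least 3 of the 8 genes (194 cells, 3250443 UMIs) were set against cells with none (1127 cells, 13281968 UMIs). Among all 14177 genes with at least 20 UMIs other than the 8, 3.85% were at least 2-fold higher in the first set and 10.7% at least 2-fold lower. The median log2 ratio was -0.16. Of the 84 list genes that passed the same minimum, 45 were at least 2-fold higher and 5 at least 2-fold lower, with a median log2 ratio of 1.11. The minimum counted the UMIs of both sets together, so a scarce gene could pass it through the set where it was high. In 33 of the 45 the level was at least 2-fold higher within FTOC and within ORFTOC taken separately. The lists were chosen with results of these data known, counts under 3 were set to 3, and the contrast is a description of the chosen cells. The lists also hold Sprr2a1 and Sprr2a2, near-identical copies of Sprr2a3, which helped to choose the cells. The first set was deeper, with a median of 15700.5 UMIs per cell against 11066.

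**Figure D5:**
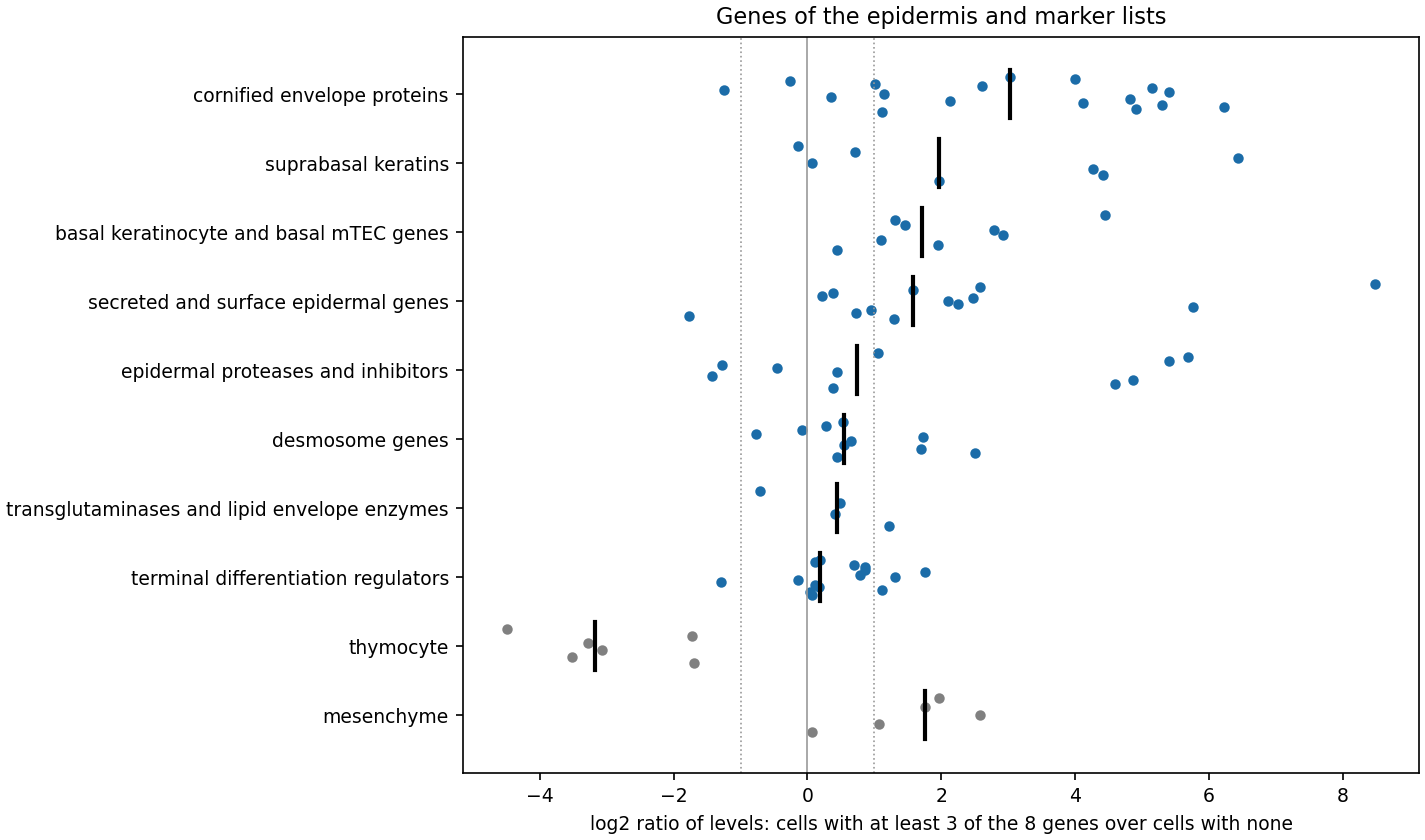
Log2 ratio of the level in cells with at least 3 of the 8 genes over cells with none, 1 dot per gene with at least 20 UMIs, by list, with the median of each list as a black bar and dotted lines at 2-fold. Among the 8 epidermal lists the median of the cornified envelope proteins lies furthest to the right. Terminal differentiation regulators lie near 0, thymocyte markers lie to the left and 4 of 5 mesenchyme markers lie to the right.

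Cornified envelope proteins had the highest median of the 8 epidermal lists. Of 17 with enough UMIs, 14 were at least 2-fold higher and 1 lower, with a median log2 ratio of 3.03. Sprr2a1, at 133 against 30.4 CPM, was among the higher ones. As a near-identical copy of Sprr2a3 it is not independent of the choice of cells. Repetin (Rptn), a protein of the envelope, stood at 27.7 CPM against 0.979 CPM, with 90 and 13 UMIs. Cornifelin (Cnfn) was at 20.9 against 2.56 CPM, with 64 of its 68 UMIs in the first set held by 2 cells. Sprr2f had 55 UMIs in the first set, 40 of them in 1 cell, and 1 in the second. Hrnr, encoding hornerin, had 26 UMIs, 22 of them in 2 cells, and 1. Loricrin (Lor), the main protein of the mature envelope, was at 5.85 against 2.64 CPM, on 19 and 35 UMIs; within FTOC it was at 2.48 against 4.05 CPM, and within ORFTOC at 7.85 against 1.49 CPM. Filaggrin (Flg) had 21 and 14 UMIs, and 2 cells held 19 of the 21. In the first set, 2 cells held 37 of 39 Crct1 UMIs, all 31 of Lce3c and all 29 of Sprr2d. Several ratios behind the median of this list thus rest on 2 cells for each gene and do not describe the 194 cells at large. Sprr2f, Hrnr, Crct1, Lce3c and Sprr2d also passed the minimum of 20 UMIs through the first set, where they were high. The count of higher genes and the median of this list are therefore in part fixed by that minimum. Of the 46 envelope genes in the table, 20 had no UMI in the epithelial cells of either pool.

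Among suprabasal keratins 4 of 7 were at least 2-fold higher. Krt6a, a keratin of activated keratinocytes, stood at 147 against 7.60 CPM, and Krt80 at 13.8 against 3.54 CPM. Krt10 was at 46.8 against 28.6 CPM and its partner Krt1 at 3.08 against 3.39 CPM, under 2-fold for both keratins of the spinous layer, although within FTOC Krt10 was at 76.8 against 31.9 CPM. Krt13, at 97.5 against 1.13 CPM, rested on 1 FTOC cell, which held 315 of the 336 Krt13 UMIs of that pool. Of the basal genes, 7 of 8 were at least 2-fold higher. Krt5 stood at 3572 against 920 CPM, Krt14 at 987 against 143 CPM, Krt15 at 231 against 30.4 CPM and Col17a1, a hemidesmosome collagen, at 29.5 against 1.36 CPM. Within FTOC alone, Krt14 was at 225 against 121 CPM and Krt15 at 66.9 against 43.2 CPM, both under 2-fold. The exception in the pooled cells was Trp63, the transcription factor of basal cells, at 151 against 111 CPM.

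The other lists were less shifted. Of proteases and inhibitors 5 of 10 were at least 2-fold higher and 2 lower. Serpinb2 stood at 112 against 3.84 CPM and Serpinb5 at 31.1 against 1.28 CPM, while the kallikrein Klk8 was at 6.46 against 15.7 CPM. Klk13 had 38 UMIs in the first set and none in the second, a ratio of 51.8 with the second set taken at 3 UMIs. That ratio is not a lower bound, and Klk13 passed the minimum of 20 UMIs through the first set alone. Of the 38 UMIs, 30 were held by 2 of the 194 cells. Of desmosome genes 3 of 10 were higher, namely Perp (562 against 173 CPM), Pkp1 (35.1 against 6.17 CPM) and Dsg3 (12.9 against 3.92 CPM). Desmoplakin (Dsp) was at 398 against 255 CPM. Of differentiation regulators 3 of 15 were higher. Klf4 stood at 187 against 75.8 CPM, Hopx at 76.6 against 22.7 CPM and Ovol1 at 7.69 against 3.54 CPM. Within ORFTOC alone Hopx was at 32.9 against 25.9 CPM. Grhl3 and Zfp750 were under 2-fold apart. Of secreted and surface genes 8 of 13 were higher, among them Ly6d (401 against 83.9 CPM), Krt23 (44.0 against 7.91 CPM) and Sfn (817 against 334 CPM). Of the transglutaminases and enzymes of the lipid envelope, taken as 1 list, 1 of 4 was higher, transglutaminase 1 (Tgm1, 7.38 against 3.16 CPM).

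Markers of other cells moved with this contrast. All 6 thymocyte markers were lower in the cells with at least 3 genes, where their summed level was 34.7 CPM in FTOC and 31.4 CPM in ORFTOC against 282 and 302 CPM in the cells with none. The 5 mesenchyme markers summed to 497 CPM against 55.7 CPM in ORFTOC. In FTOC they summed to 52.0 CPM against 112 CPM, and 2 of the 5 had no UMI in the cells with at least 3 genes. Markers of other epithelial cells moved too. Of the airway-like markers 4 of 5 were at least 2-fold higher, with a median log2 ratio of 3.15, above that of the envelope list, while their summed level was 6448 against 3511 CPM in FTOC and 23634 against 18486 CPM in ORFTOC. Of the cTEC markers 6 of 7 were lower, and their sum was 1728 against 8621 CPM in ORFTOC but 2427 against 2340 CPM in FTOC. Tuft markers were lower in 3 of 6, ionocyte markers in 2 of 3 and neuroendocrine markers in 2 of 2. With cells positive for Ptprc, Cd3e or Pdgfra left out, an alternative added after the values were seen, 36 of 80 list genes were at least 2-fold higher and 2 lower.

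Between the pools, 11 of 96 list genes were at least 2-fold higher in ORFTOC (5.87% of all genes) and 22 were at least 2-fold higher in FTOC (6.33% of all genes). Many of the latter were held by a few cells. Krt13 had 336 UMIs in FTOC and 4 in ORFTOC, and Calm4, a calmodulin-like gene of differentiating keratinocytes, 246 UMIs in 4 FTOC cells and 21 in 6 ORFTOC cells. Lce1h had 29 UMIs, all in 1 FTOC cell, and Klk6 81 UMIs in 4 FTOC cells and none in ORFTOC. The minimum of 20 UMIs counted both pools together, so such genes passed it through FTOC alone. With a minimum of 100 UMIs, 8 of 70 genes were at least 2-fold higher in FTOC and 9 in ORFTOC. Those at least 2-fold higher in ORFTOC included some that were more widely detected. Krt6a had 181 UMIs in 28 FTOC cells and 844 UMIs in 155 ORFTOC cells (12.8 and 42.4 CPM), Krt14 stood at 150 and 404 CPM, and the plakins periplakin (Ppl) and envoplakin (Evpl), envelope scaffolds, at 9.31 and 22.2 CPM and at 5.72 and 13.6 CPM. Markers of mesenchyme (4 of 5) and of macrophages (4 of 4) were also at least 2-fold higher in ORFTOC epithelial cells. With cells positive for Ptprc, Cd3e or Pdgfra left out, 16 of 94 list genes were at least 2-fold higher in ORFTOC and 18 in FTOC. With the 5 clusters led by genes of other cell types left out, the counts were 11 and 20 of 95. Both alternatives were added after the values were seen.

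Genes most like the 8 were ranked by Pearson r with their mean level (log of counts per 10000) across the cells of each pool, taking the lower of the 2 values, among 12986 genes. The 10 leading genes were Sprr2a1 (r = 0.34), Perp (0.32), Aqp3 (0.30), Tpm2 (0.30), Itm2b (0.27), Mpped2 (0.26), Tgfbi (0.25), H2-Eb1 (0.25), Serpinb1a (0.25) and Ifitm2 (0.24). These are weak correlations over cells that share depth and library, given as a description. Sprr2a3 and Sprr1a, the most widely detected of the 8, contributed most to the mean. None of the 10 leading genes was among the nearest 3 of Spink5, Sbsn, Krtdap, Dmkn, Ivl or Lypd3, so the 10 are not neighbours of each of the 8. Sprr2a1 is a near-identical copy of Sprr2a3, and reads may be split between them. Its rank here, and its place beside Sprr2a3 below, are therefore not independent of the 8 genes. Aqp3, the water and glycerol channel of basal keratinocytes, stood at 677 CPM in cells with at least 3 of the 8 genes against 127 CPM in cells with none. The nearest genes differed from member to member. Krtdap was nearest to Anxa8 (0.30), Dmkn (0.28) and Glyat (0.20), and Dmkn to Krtdap (0.28), Sbsn (0.28) and Anxa8 (0.26). Spink5 was nearest to Reg3g (0.37), Upk3a (0.36) and Serpinb2 (0.33), and Sbsn to Cldn4 (0.32), Fxyd3 (0.31) and Anxa1 (0.30). Sprr1a was nearest to Aqp3 (0.37), Fam162a (0.29) and Ndufa4l2 (0.26), and Sprr2a3 to Sprr2a1 (0.57), Ccl21a (0.38) and Tpm2 (0.36). The scarce genes gave the lowest values, with Krtdap (0.18), Ces2g (0.14) and Sprr1a (0.13) for Ivl and Serpinb2 (0.22), Pdzk1ip1 (0.20) and Tuba8 (0.18) for Lypd3. Krtdap, Dmkn and Ivl had another of the 8 genes among their nearest 3, and the other 5 did not. Only genes detected in at least 20 epithelial cells of each pool could stand as nearest. Ivl (17 ORFTOC cells) and Lypd3 (17 FTOC and 11 ORFTOC cells) could therefore not be nearest to any gene.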

How the data were processed

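Single-cell 5′ gene expression, T cell receptor and hashtag libraries were made from 1 lane. The authors aligned reads to mm10 and counted molecules per gene and barcode with Cell Ranger (6.1.2 in the submitters' processing notes; a file header names another version), and the notes also list Seurat 4.2.0. The deposited table holds raw UMI counts, 103984163 in 705161 barcodes, with no normalization and no barcode filter. T cell receptor files were not used. Barcodes with at least 600 genes and 0.4 to 10% mitochondrial UMIs (10245) were assigned to pools with HTODemux of Seurat 5.3.0 at a quantile of 0.99, which left out 590 between-pool doublets and 672 unlabelled cells. A further 591 likely within-pool doublets were removed by their neighbourhood, that is, by between-pool doublets among their 50 nearest neighbours. Counts were summed over Epcam-positive cells of a pool and given as CPM. Counts under 3 were set to 3 in ratios, and 2-fold was the threshold throughout. Thinned shares are expectations for 5000 UMIs drawn without replacement, with genes taken as independent for numbers of genes per cell. Clusters used scanpy 1.11.5 (2000 variable genes, 18 components, 20 neighbours, Leiden resolution 0.8). The ratio and thinning steps were tested on simulated data. Upstream sequences and gene positions are from RefSeq (GRCm38.p6), and Sprr2a transcripts were compared with Biopython 1.88 on GENCODE sequences, taking no coordinates from them. The motif window of Spink5 was not analysed here. Some list genes are counted but not reported here by name. The genes named are the 8 genes, the 10 most like their mean and the 3 nearest to each of the 8. Also named are list genes at least 2-fold apart (and others of the same lists beside them) and the 3 leading genes of clusters described. Krt10, Krt13, Calm4 and Bpifa1 in single cells were chosen after their values were seen, as were the other Sprr2a copies and the tuft marker split of cluster 12. The members and gene lists were chosen with earlier results of these data known. Alternatives changed the epithelial gate, hashtag rule, doublets, quality limits, ambient RNA, weighting, depth, normalization (edgeR 4.0.16, TMM), count minimum and cluster resolution.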

Additional observations from a re-analysis of the deposited data

How the results depend on the processing

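No paired analysis was possible because each culture system is 1 pool in 1 lane. Of 271 recomputed values over 31 results, 229 stayed within the counting interval of the value reported, or within 1.5 times a count, and none of the genes at least 2-fold apart changed direction. Log2 ratios of ORFTOC over FTOC that left the interval were as follows. With at least 3 Epcam UMIs they were 0.30 for Sprr1a, 0.70 for Sprr2a3 and 1.54 for Krtdap. With Ptprc, Cd3e and Pdgfra at 0 they were 0.069 for Sprr1a and 0.74 for Sprr2a3. With the hashtag ratio rule they were 0.13, 0.49 and, for Spink5, 0.066. Without mitochondrial limits they were 0.13 and 0.58. With the mean of per-cell CPM they were -0.013, 0.59 and, for Krtdap, 0.62. Krtdap was at 0.95 with within-pool doublets kept, and in these last 2 settings 0 genes in place of 1 were at least 2-fold higher in ORFTOC. Leaving out the leading cell gave 0.47 for Spink5 and 0.52 for Sbsn. Alternatives added after the values were seen moved Sprr2a3, to 0.69 without the clusters led by other cell types and to 0.52 with its copies summed. The share of cells with at least 3 genes was 3.48% in FTOC and 4.80% in ORFTOC at 5000 UMIs, and 1.55 and 2.36% at 2000 UMIs, which follows from the smaller number of UMIs. With a minimum of 100 UMIs, 27 list genes in place of 45 were higher and 3 in place of 5 lower in cells with at least 3 genes, and 8 in place of 22 were higher in FTOC, since fewer genes passed. With Ptprc, Cd3e and Pdgfra at 0, 2 were lower. The highest cluster shared at least 5 of its 10 leading genes with that at resolution 0.8 for 5 of the 8 genes at 0.4 and for 4 at 1.2, and the cause was not tested.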

Other observations

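Cells outside the comparison carried the same transcripts. Among Epcam-positive barcodes without a hashtag call, 10 of 345 had at least 3 of the 8 genes (2.90%, median 3964 UMIs per barcode). Among between-pool doublets with Epcam, 33 of 274 had at least 3 (12%, median 17125 UMIs). These barcodes belong to no pool, and no comparison was made with them.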
